A study of Mus musculus with 12 samples.

Results

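The expression of 37 lysosome genes, of 25124 genes in the table, was described in interscapular brown adipose tissue (BAT) of mice lacking thioredoxin-interacting protein (TXNIP). The genes were chosen by name, with earlier results of these data known, and comprised 4 cathepsins that are rich in myeloid cells, 6 further proteases, 5 genes of lipid breakdown, 8 other hydrolases of sugars and peptides, 5 membrane proteins, 7 subunits of the proton pump and 2 TFE regulators. Polyadenylated RNA was sequenced from 12 libraries, 3 in each of 4 groups: wild-type (WT) at room temperature (RT, 23 °C), Txnip-/- at RT, WT at thermoneutrality (TN, 30 °C) and Txnip-/- at TN. Mice of all groups were 10-week-old males on a C57B/6J background and were kept at their temperature for 1 week before sampling. Txnip-/- mice lacked the gene in the whole animal from birth, and WT littermates carried no deletion, so an effect within the adipocyte cannot be separated from an effect in another cell of the tissue or another organ. The question was which lysosome genes differed between genotypes at each temperature, and whether those that did were limited to the cathepsins of myeloid cells.

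Lysosomes are acidic organelles in which proteins, lipids and glycans delivered by endocytosis, phagocytosis and autophagy are taken apart. Soluble hydrolases do the cutting, a vacuolar ATPase pumps in the protons that they need, and heavily glycosylated membrane proteins line the organelle. The transcription factors TFEB and TFE3 bind the CLEAR motif, whose core is CACGTG, in the promoters of many of these genes. In adipose tissue both the adipocyte and resident macrophages hold lysosomes, and in bulk RNA a change in the number of cells of a type and a change in RNA per cell cannot be told apart.

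Levels are given as TPM, a transcript abundance scaled by transcript length and by library. Depth ranged from 29.93M to 47.44M reads per library (M, 1e6). Txnip itself matched the labels, at 564, 581 and 694 TPM in RT WT, 24.8, 26.9 and 35.4 TPM in RT Txnip-/-, 1238, 1083 and 1072 TPM in TN WT, and 11.0, 14.4 and 10.5 TPM in TN Txnip-/-. Nothing in the labels says beyond a replicate number that the libraries of a group came from different mice, so p-values measure the spread between these libraries. The 12 brown adipocyte markers summed to 20180 to 30780 TPM per library, the largest part from Fabp4, a gene of adipocytes in general. Ucp1, the thermogenic uncoupling protein of brown fat, averaged 3982 TPM in WT and 3033 TPM in Txnip-/- at RT and 814.3 and 249.4 TPM at TN, and in TN Txnip-/- Dio2 and Elovl3 averaged 1.061 and 0.3337 TPM. Skeletal muscle transcripts differed between libraries. Their summed level was 2.317 to 2.841 TPM in RT WT and 17.87 to 43.51 TPM in RT Txnip-/-, and at TN it reached 14.38 TPM in replicate 2 of each genotype.

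The promoters are shown first because the members differed in whether they carry the TFE motif. Of the 37 genes, 32 matched a RefSeq promoter window on GRCm38.p6 running from 250 bases before to 50 bases after the start. CACGTG, which reads the same on both strands, was present in 11 of these 32 genes (34.4%), namely Atp6v0d1, Atp6v1a, Ctsa, Ctsd, Ctsl, Gaa, Gla, Glb1, Lamp1, Lgmn and Mcoln1, against 8.09% of all 27025 genes with a window. The longer TCACGTGA, which contains CACGTG, was found in 6 of 32 (18.8%) against 1.12% of all genes. GAGGAAGT, a word bound by the myeloid factor PU.1, was found on either strand in 4 of 32 (12.5%), in Ctsc, Ctss, Gla and Gusb, against 3.69% of all genes. Below are the 100 bases just before the start of 3 cathepsin genes without a CACGTG match (Ctss, Ctsc and Ctsk) and of 4 genes with it (Ctsa, Ctsd, Lamp1 and Mcoln1), 5′ to 3′ on the strand of the gene, with CACGTG in capitals.
Ctss, chr3:95526686-95526785, plus strand: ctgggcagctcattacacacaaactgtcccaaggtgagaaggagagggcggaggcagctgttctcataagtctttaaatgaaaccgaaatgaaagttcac
Ctsc, chr7:88277985-88278084, plus strand: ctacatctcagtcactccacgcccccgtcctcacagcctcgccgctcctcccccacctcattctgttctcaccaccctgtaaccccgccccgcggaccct
Ctsk, chr3:95499110-95499209, plus strand: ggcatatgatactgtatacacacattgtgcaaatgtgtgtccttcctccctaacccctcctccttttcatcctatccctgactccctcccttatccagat
Ctsa, chr2:164833673-164833772, plus strand: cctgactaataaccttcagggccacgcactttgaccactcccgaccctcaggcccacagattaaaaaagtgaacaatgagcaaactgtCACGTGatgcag
Ctsd, chr7:142387828-142387927, minus strand: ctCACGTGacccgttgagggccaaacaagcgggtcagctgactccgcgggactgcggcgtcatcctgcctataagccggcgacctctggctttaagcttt
Lamp1, chr8:13159061-13159160, plus strand: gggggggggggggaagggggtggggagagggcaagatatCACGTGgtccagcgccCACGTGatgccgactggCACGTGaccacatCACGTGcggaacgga
Mcoln1, chr8:3500419-3500518, plus strand: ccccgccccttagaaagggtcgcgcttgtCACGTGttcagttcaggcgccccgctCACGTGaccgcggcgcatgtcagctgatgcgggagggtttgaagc

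Lamp1 held 4 matches in these bases and Mcoln1 held 2, whereas Ctss, Ctsc and Ctsk held none in the whole window. A match is a description of the letters and not of binding.

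At TN, 8 of the 37 lysosome genes were higher in Txnip-/- than in WT BAT and 0 were lower. They were Ctsc, Ctsh and Ctss of the myeloid-rich group, Ctsa, Ctsb and Ctsk of the other proteases, the glycosidase gene Man2b1, and Cd63, a membrane protein of late endosomes and lysosomes. By these lists the calls were not limited to the myeloid-rich cathepsins, since 5 of the 8 lay outside that group. The group was set by name. Resident macrophages hold lysosomes too, so a gene outside the group may still be expressed by myeloid cells. The cell of origin was not tested. A gene was called when its log2 fold change was above 0.32 or below −0.32 and its adjusted p was under 0.05 by limma on log2(TPM + 1) over all genes tested, and by this rule 6.49% of 12891 genes were higher and 2.17% were lower. The median log2 fold change of the members was 0.17, against 0.01 over all genes tested, and 30 of 37 members lay above 0. The 3 TN Txnip-/- libraries lay above all TN WT libraries in 20 members, below them in 3 (Smpd1, Mcoln1 and Atp6v1h) and overlapped them in 14. Of all genes tested, 17.7% lay above without overlap and 13.4% below. At an unadjusted p under 0.05, 18 members were higher and 3 were lower, against 15.6% and 10.0% of all genes tested. Without replicate 2 of each genotype, the TN libraries with muscle transcripts, 2 members were called (Ctsh and Cd63), with little change in the fold of the others, for example 1.92 for Ctss.

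At RT, Ctss and Cd63 were the 2 members higher in Txnip-/- BAT, and 0 were lower. The background was 0.760% higher and 0.726% lower of 11980 genes. Across the list the median log2 fold change was −0.01, against 0.03 over all genes tested, and 17 of 37 members lay above 0. At an unadjusted p under 0.05, 6 members were higher and 4 were lower, against 9.89% and 6.14% of all genes tested. Between 0 and 2 members were called when 1 library was left out, with 0 in 4 of these 6 fits, those without RT WT replicate 1 or 2 or RT Txnip-/- replicate 1 or 3. Muscle transcripts were raised in all 3 RT Txnip-/- libraries and cannot be told apart from genotype there.

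**Figure D1:**
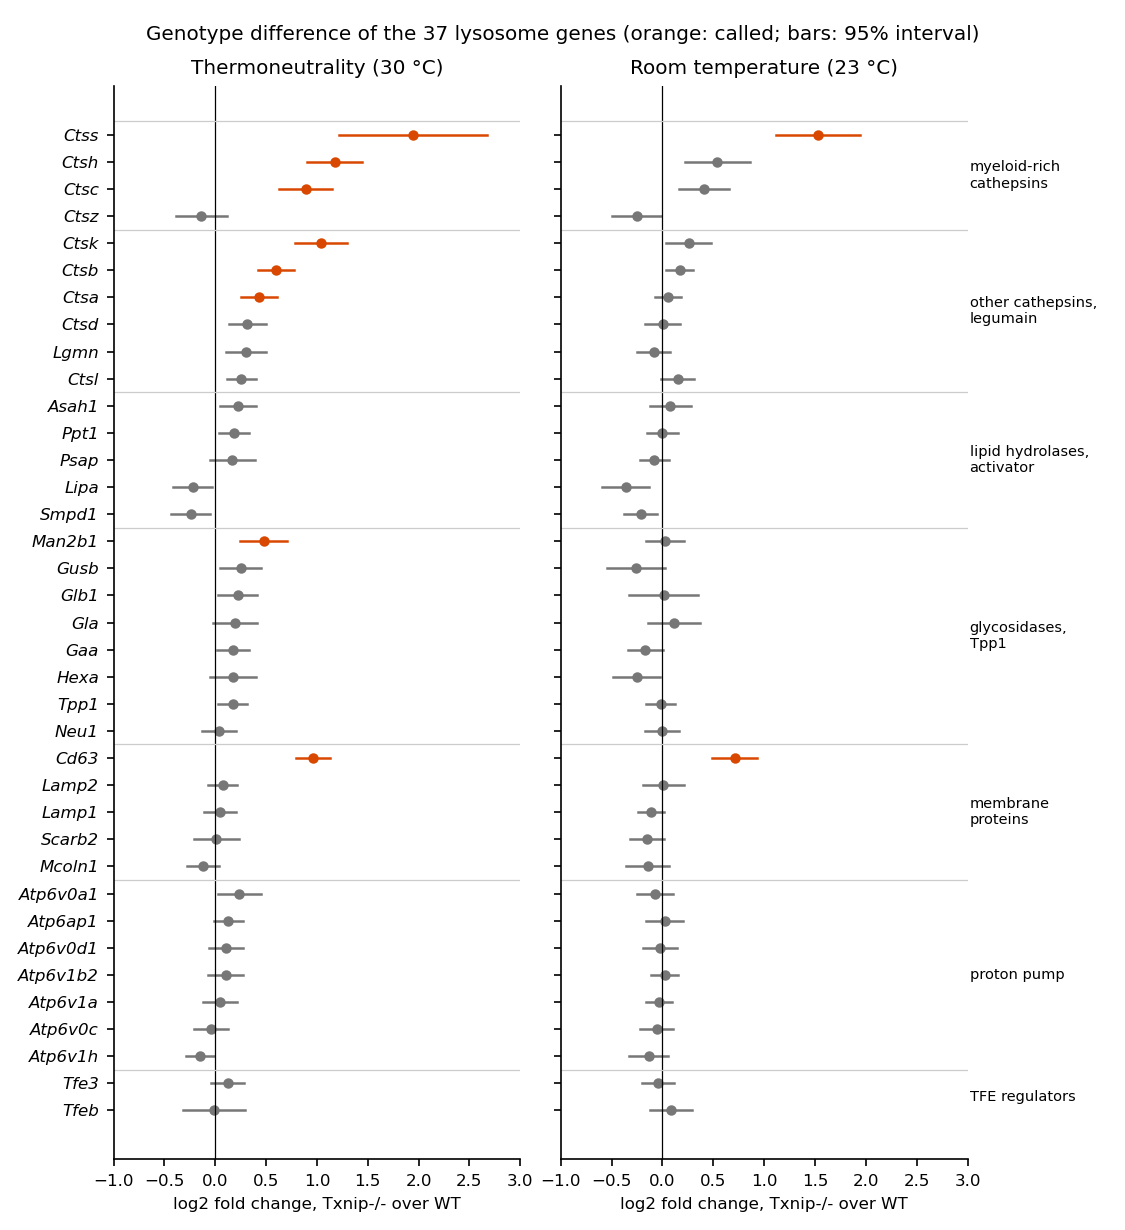
Log2 fold change on the log2(TPM + 1) scale, Txnip-/- over WT, of each of the 37 lysosome genes at TN and at RT, in role groups, with 95% intervals and called genes in orange. The 8 genes called at TN and the 2 called at RT all lie to the right of 0, and Ctss has the largest fold change in each panel, 1.94 at TN and 1.53 at RT.

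Among the 4 cathepsins rich in myeloid cells, Ctss, Ctsh and Ctsc were higher in Txnip-/- at TN and Ctsz did not pass the test. Ctss encodes cathepsin S, which trims the invariant chain of MHC class II molecules in antigen-presenting cells (chr3:95526786-95556405, plus strand, mm10). Its level was 4.39, 4.99 and 6.09 TPM in RT WT, 19.9, 12.6 and 18.4 TPM in RT Txnip-/-, 13.1, 26.1 and 33.9 TPM in TN WT, and 101, 106 and 68.1 TPM in TN Txnip-/-. The genotypes did not overlap at either temperature, and TN WT spread the most for its mean (24.4 ± 10.5 TPM, SD, n = 3). On the log2(TPM + 1) scale the genotype difference was 1.94 ± 0.31 (SE) at TN, with an adjusted p of 0.0114 by limma, and 1.53 ± 0.18 at RT, with an adjusted p of 0.0202.

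Ctsh encodes cathepsin H, a cysteine protease that acts mainly as an aminopeptidase (chr9:90054267-90076095, plus strand). In Txnip-/- BAT it measured 28.3, 29.6 and 22.6 TPM at TN and 10.9, 8.19 and 9.42 TPM at RT, and in WT 9.98, 11.6 and 12.3 TPM at TN and 5.07, 6.90 and 6.69 TPM at RT. All Txnip-/- libraries lay above all WT libraries at each temperature. The difference was 1.17 ± 0.12 at TN (adjusted p = 0.00312, limma), and at RT it was 0.54 ± 0.14, which did not pass (adjusted p = 0.119).

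Ctsc encodes cathepsin C, the dipeptidyl peptidase that activates serine proteases of immune cell granules (chr7:88278085-88315861, plus strand). It was one of the least expressed members, at 1.35 ± 0.0398 TPM in WT and 2.12 ± 0.272 TPM in Txnip-/- at RT, and 2.89 ± 0.388 TPM in WT and 6.19 ± 0.695 TPM in Txnip-/- at TN (SD, n = 3). Its libraries were 2.44, 3.09 and 3.13 TPM in TN WT against 6.33, 6.81 and 5.44 TPM in TN Txnip-/-, with no overlap. At RT they were 1.30, 1.37 and 1.37 TPM in WT and 2.06, 1.89 and 2.42 TPM in Txnip-/-, again apart. The log2 difference was 0.89 ± 0.11 at TN (adjusted p = 0.00608, limma) and 0.41 ± 0.10 at RT (adjusted p = 0.122). Because 1 was added to each TPM, these values understate the change of so low a gene.

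Ctsz, which encodes the carboxypeptidase cathepsin Z (chr2:174427494-174439039, minus strand), had by far the highest level of these 4 genes and did not follow them. It measured 140.2, 157 and 171 TPM in TN WT and 141, 160.0 and 125 TPM in TN Txnip-/-, with overlapping libraries, as at RT, with 177, 226 and 204 TPM in WT and 155, 185 and 166 TPM in Txnip-/-. The log2 difference was −0.14 ± 0.11 at TN (adjusted p = 0.480, limma) and −0.25 ± 0.10 at RT (adjusted p = 0.283). The group's summed level, most of it from Ctsz, was therefore 165.8 to 220.5 TPM in TN WT and 221.4 to 302.8 TPM in TN Txnip-/-, while its median log2 fold change was 1.03 at TN and 0.47 at RT.

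**Figure D2:**
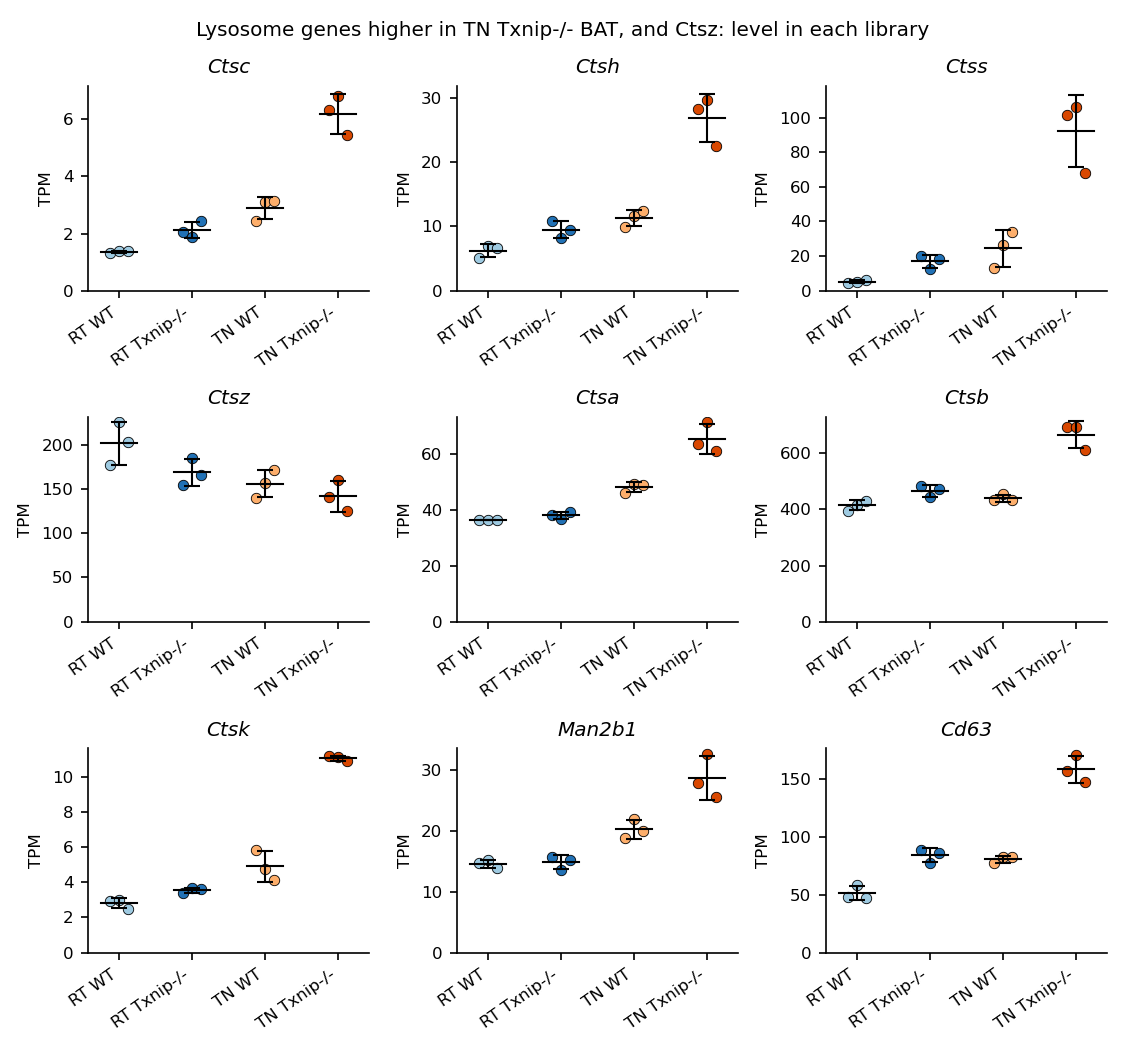
TPM in each library of the 8 lysosome genes higher in TN Txnip-/- BAT and of Ctsz, with the mean (line) and SD (bar) of the 3 libraries of each group and axes from 0. The TN Txnip-/- libraries lie above all TN WT libraries in the 8 called genes and overlap them in Ctsz.

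Of the 6 other proteases, 3 were higher at TN in Txnip-/- BAT, and the other 3 lay above 0 without passing both thresholds. Ctsk encodes cathepsin K, the collagen-cleaving protease best known from osteoclasts (chr3:95499210-95509387, plus strand). It measured 2.92, 3.01 and 2.49 TPM in RT WT, 3.38, 3.65 and 3.60 TPM in RT Txnip-/-, 5.86, 4.76 and 4.11 TPM in TN WT, and 11.2, 11.1 and 10.9 TPM in TN Txnip-/-. The genotypes were separate at both temperatures. The log2 difference was 1.04 ± 0.11 at TN (adjusted p = 0.00351, limma) and 0.26 ± 0.10 at RT (adjusted p = 0.244).

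Ctsb encodes cathepsin B, an abundant cysteine protease of most cells (chr14:63122462-63145923, plus strand). Its TN values were 432, 454 and 433 TPM in WT and 694, 692 and 609.9 TPM in Txnip-/-, and its RT values were 396, 417 and 431 TPM in WT and 483, 443 and 474 TPM in Txnip-/-. Txnip-/- libraries were again the higher at both temperatures, by 0.59 ± 0.08 at TN (adjusted p = 0.00619, limma) and by 0.17 ± 0.06 at RT, which did not pass (adjusted p = 0.210). Its exons share 774 bases with those of Fdft1 on the opposite strand. Fdft1, which encodes squalene synthase, was also higher at TN, at 106 against 70.9 TPM (log2 difference 0.57, adjusted p = 0.00428), and without a stated strand setting reads of the shared bases cannot be assigned to either gene.

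Ctsa encodes cathepsin A, the carboxypeptidase that protects β-galactosidase and neuraminidase within the lysosome (chr2:164833773-164841032, plus strand). RT WT measured 36.4, 36.4 and 36.3 TPM, RT Txnip-/- 37.9, 36.7 and 39.2 TPM, TN WT 45.9, 49.2 and 48.7 TPM, and TN Txnip-/- 63.5, 71.3 and 60.8 TPM. The difference of 0.43 ± 0.08 at TN passed (adjusted p = 0.0142, limma), and that of 0.06 at RT did not (adjusted p = 0.662). Without TN Txnip-/- replicate 1 the TN call was lost (adjusted p = 0.0519). Ctsa shares 495 exon bases with Pltp and 324 with Neurl2, both on the opposite strand. Pltp, which encodes phospholipid transfer protein, was higher at TN as well, at 84.1 against 49.7 TPM (log2 difference 0.75, adjusted p = 0.00383). The enzymes that cathepsin A protects did not pass: Neu1 differed by 0.04 and Glb1 by 0.22 at TN.

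The remaining proteases moved less. Lgmn, the asparaginyl endopeptidase that processes other cathepsins (chr12:102394082-102439813, minus strand), measured 34.6, 35.9 and 39.5 TPM in TN WT and 46.0, 49.2 and 41.2 TPM in TN Txnip-/-, and its difference of 0.30 ± 0.09 did not pass (adjusted p = 0.0668, limma), though it did without TN Txnip-/- replicate 3 (0.37, adjusted p = 0.0464). Ctsl, which encodes cathepsin L (chr13:64361890-64370520, minus strand), was 49.2, 48.7 and 48.6 TPM in TN WT and 57.0, 61.9 and 56.8 TPM in TN Txnip-/-. Its difference of 0.26 ± 0.06 passed the p threshold (adjusted p = 0.0421) but not the fold threshold, as did that of Ctsd, which encodes the aspartic protease cathepsin D (0.31 ± 0.08, adjusted p = 0.0451). Exons of Ctsl share 1742 bases with the antisense gene Gm47123 and 395 bases with the pseudogene Gm49230, and those of Ctsd share 808 bases with Gm49369 on the same strand, so reads of these bases cannot be assigned either. Shorter overlaps with other genes, of 10 to 255 bases, were found for Ctsz, Ppt1, Atp6v1h, Glb1, Lamp1 and Hexa. At RT the differences of Lgmn, Ctsl and Ctsd were −0.09, 0.15 and 0.00. Lgmn then measured 29.4, 29.4 and 27.4 TPM in WT and 26.3, 25.9 and 28.8 TPM in Txnip-/-, and Ctsl 47.3, 51.8 and 44.8 TPM in WT and 51.1, 53.1 and 55.5 TPM in Txnip-/-, each with overlap.

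None of the 5 genes of lipid breakdown was called between genotypes. Psap, the precursor of the saposins that present sphingolipids to their hydrolases, had the highest mean level of all members, 887 to 1255 TPM over the 12 libraries. It measured 1186, 1027 and 976 TPM in TN WT and 1215, 1255 and 1109 TPM in TN Txnip-/-, an overlapping pair (0.17 ± 0.10, adjusted p = 0.323, limma). Asah1, the acid ceramidase gene, measured 34.9, 32.01 and 30.9 TPM in TN WT and 39.4, 39.8 and 35.4 TPM in TN Txnip-/- (0.22 ± 0.08, adjusted p = 0.114). Ppt1, which removes palmitate from proteins, was 32.8, 34.6 and 32.1 TPM in TN WT and 39.1, 36.7 and 38.0 TPM in TN Txnip-/- (0.19 ± 0.06, adjusted p = 0.109). Asah1 and Ppt1 were higher in all Txnip-/- libraries at TN without passing. At RT the libraries of the 3 genes overlapped. Psap then measured 989, 1034 and 938 TPM in WT and 933, 887 and 983 TPM in Txnip-/-, Asah1 25.4, 29.3 and 24.0 TPM and 26.6, 29.4 and 27.0 TPM, and Ppt1 22.4, 23.7 and 22.2 TPM and 23.6, 21.6 and 23.3 TPM.

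The other 2 members of that group had negative values. Smpd1, the acid sphingomyelinase gene, measured 71.1, 58.2 and 67.3 TPM in TN WT and 53.8, 54.5 and 56.9 TPM in TN Txnip-/-, and all Txnip-/- libraries were below all WT libraries at both temperatures. Its log2 differences were −0.24 ± 0.08 at TN (adjusted p = 0.114, limma) and −0.22 ± 0.07 at RT (adjusted p = 0.185). Lipa, the acid lipase that frees fatty acids and cholesterol from lipoprotein and lipid droplet esters, measured 72.5, 62.2 and 78.3 TPM in RT WT and 49.9, 58.9 and 55.8 TPM in RT Txnip-/-. Its difference was −0.36 ± 0.10 at RT (adjusted p = 0.140) and −0.22 ± 0.08 at TN (adjusted p = 0.131).

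Of the 8 genes formed by the glycosidases and the peptidase gene Tpp1, 1 was called at TN and 0 at RT. Man2b1 encodes the acid α-mannosidase that trims N-glycans (chr8:85083269-85098739, plus strand). At TN it measured 18.8, 21.9 and 20.0 TPM in WT and 27.7, 32.6 and 25.5 TPM in Txnip-/-, which did not overlap, and at RT 14.7, 15.1 and 13.8 TPM in WT and 15.7, 13.5 and 15.3 TPM in Txnip-/-, a difference of 0.02. The TN difference was 0.48 ± 0.10 (adjusted p = 0.0270, limma), and this call was lost without TN WT replicate 1 or 3 or TN Txnip-/- replicate 1 or 2 (adjusted p of 0.0682 to 0.0803). The other 7 members all lay above 0 at TN, from 0.04 for the sialidase gene Neu1 to 0.25 for the β-glucuronidase gene Gusb. Neu1 measured 10.3, 11.0 and 10.5 TPM in TN WT and 10.6, 11.7 and 10.6 TPM in TN Txnip-/-, and the 95% interval of its log2 difference was −0.13 to 0.21, which lies within the fold threshold. At RT it measured 10.0, 10.7 and 10.3 TPM in WT and 10.5, 9.74 and 10.7 TPM in Txnip-/-.

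Gusb was 17.3, 15.3 and 16.9 TPM in TN WT and 21.0, 20.7 and 17.8 TPM in TN Txnip-/- (0.25 ± 0.09, adjusted p = 0.114, limma), whereas at RT it was 16.9, 16.1 and 12.5 TPM in WT and 12.3, 11.4 and 13.6 TPM in Txnip-/- (−0.26, adjusted p = 0.365). Hexa, the β-hexosaminidase α subunit gene, was 54.1, 50.8 and 56.7 TPM in TN WT and 60.9, 69.1 and 53.4 TPM in TN Txnip-/- (0.17, adjusted p = 0.325), and at RT its Txnip-/- libraries, at 44.6, 37.8 and 43.5 TPM, were all below WT, at 49.3, 56.4 and 45.3 TPM (−0.25, adjusted p = 0.267). Neither gene passed at either temperature. Glb1, encoding β-galactosidase, measured 11.4, 10.1 and 9.34 TPM in TN WT and 11.98, 12.02 and 12.2 TPM in TN Txnip-/-. Gla, the α-galactosidase A gene on chrX, measured 2.50, 2.67 and 2.73 TPM and 3.16, 3.42 and 2.92 TPM in the same groups. Their differences of 0.22 and 0.20 did not pass (adjusted p = 0.139 and 0.236). At RT Glb1 measured 9.87, 9.05 and 7.16 TPM in WT and 9.92, 7.18 and 9.21 TPM in Txnip-/-, and Gla 2.01, 2.06 and 2.06 TPM and 1.94, 2.63 and 2.37 TPM, both with overlap.

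Among the 5 membrane proteins, Cd63 was called at both temperatures and the other 4 at neither. Cd63 encodes a tetraspanin of late endosomes, lysosomes and exosomes (chr10:128909866-128912818, plus strand). Its level was 47.8, 58.2 and 47.6 TPM in RT WT, 89.1, 77.6 and 85.99 TPM in RT Txnip-/-, 77.5, 82.6 and 82.5 TPM in TN WT, and 157, 171 and 148 TPM in TN Txnip-/-. The genotypes were separate at each temperature, and the RT Txnip-/- mean (84.2 ± 5.96 TPM) lay close to the TN WT mean (80.9 ± 2.92 TPM). The log2 difference was 0.96 ± 0.07 at TN (adjusted p = 0.00180, limma) and 0.71 ± 0.09 at RT (adjusted p = 0.0247). The RT call of Cd63 was lost with the replicate number as a block (adjusted p = 0.0570) and without the filter on low values (adjusted p = 0.0537).

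The structural proteins of the lysosomal membrane differed little. Lamp1 ranged from 313 to 362 TPM over the 12 libraries, and the 95% interval of its log2 genotype difference at TN was −0.12 to 0.20. Scarb2, the membrane receptor that carries β-glucocerebrosidase to the lysosome (chr5:92441311-92505657, minus strand), measured 43.6, 37.8 and 34.2 TPM in TN WT and 37.02, 41.4 and 37.6 TPM in TN Txnip-/-. Its interval was −0.21 to 0.23, likewise within the fold threshold, and in RT Txnip-/- it measured 45.8, 54.2 and 48.6 TPM. Lamp2 and the calcium channel gene Mcoln1 had differences of 0.07 and −0.12.

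No proton pump subunit of the 7 was called between genotypes. The summed level of the 7 was 319.7 to 331.9 TPM in TN WT and 327.3 to 352.9 TPM in TN Txnip-/-, and their median log2 fold change was 0.10 at TN and −0.04 at RT. For 6 of the 7, all but Atp6v0a1, the 95% interval at TN lay within the fold threshold. Atp6v0a1, a membrane subunit (chr11:101009441-101063717, plus strand), measured 21.8, 25.1 and 23.1 TPM in TN WT and 25.5, 30.9 and 26.8 TPM in TN Txnip-/-, all higher but short of the test (0.24 ± 0.09, adjusted p = 0.146, limma). Atp6v0c, the proteolipid of the proton channel, measured 37.5, 41.6 and 43.3 TPM and 39.0, 40.7 and 38.9 TPM in these groups (−0.04 ± 0.07, adjusted p = 0.774). Both overlapped between genotypes at RT, where Atp6v0a1 measured 20.9, 21.4 and 22.4 TPM in WT and 21.2, 21.4 and 18.6 TPM in Txnip-/-, and Atp6v0c 37.4, 38.6 and 40.5 TPM and 39.1, 38.4 and 34.5 TPM.

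Neither TFE regulator was called. Tfeb measured 13.3, 10.1 and 15.0 TPM in TN WT and 11.6, 13.3 and 12.6 TPM in TN Txnip-/- (−0.01 ± 0.13, adjusted p = 0.964, limma), with 11.5, 10.5 and 10.2 TPM in RT WT and 10.5, 11.2 and 12.6 TPM in RT Txnip-/-, and Tfe3 differed by 0.12 (adjusted p = 0.337). Protein location, by which these factors are mainly controlled, was not measured. Set against the promoters, CACGTG was present in 1 of the 6 called members with a window, Ctsa, and in 10 of the 26 uncalled members with a window. A gene counted when any of its windows held a match, and the called genes Ctsb and Ctsh had no window. A link between the motif and the calls was not tested.

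**Figure D3:**
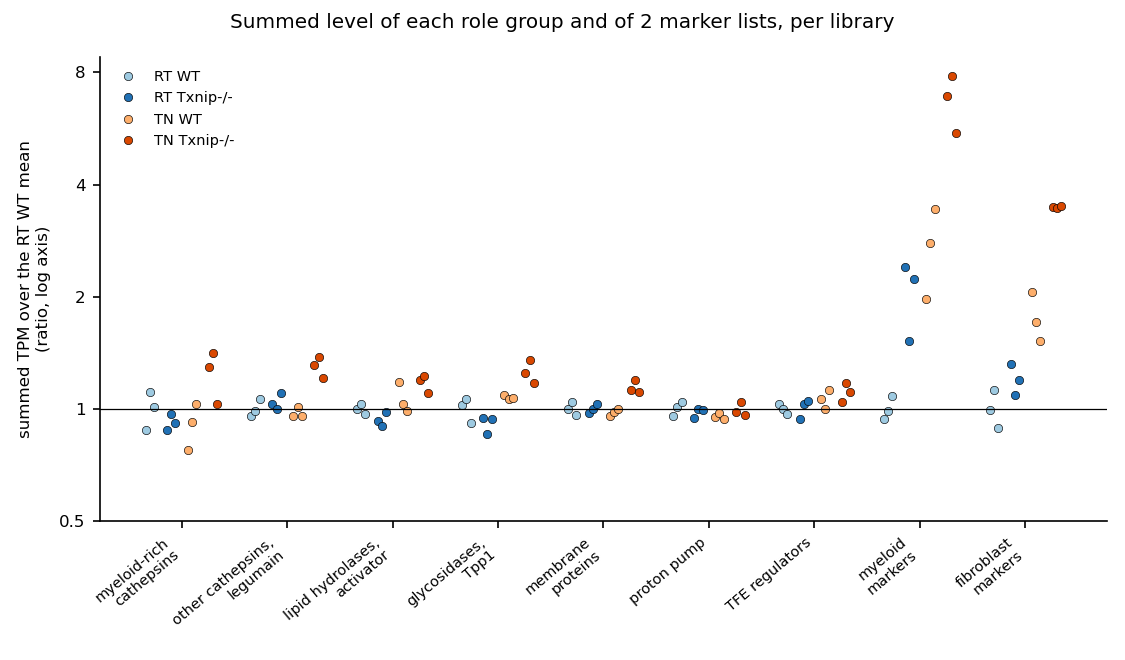
Summed TPM of each role group, and of the myeloid and fibroblast marker lists, in each of the 12 libraries, as a ratio to the RT WT mean on a log axis. In TN Txnip-/- the myeloid markers reach 5.49 to 7.84 and the fibroblast markers 3.46 to 3.51, whereas the role groups run from 0.772 to 1.41 over all libraries.

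Markers of other cell types moved with the same comparison, in which 6.49% of all genes were higher and 2.17% lower at TN, and 0.760% and 0.726% at RT. Of 18 myeloid markers, 14 were higher in Txnip-/- at TN, with a median log2 fold change of 1.07, and 5 of the 15 tested were higher at RT, with a median of 0.71. Their summed level was 100.1 to 115.3 TPM in RT WT, 162 to 256.5 TPM in RT Txnip-/-, 211.1 to 366.9 TPM in TN WT and 587.2 to 838.6 TPM in TN Txnip-/-. No myeloid marker was at 0 in all libraries of any group. Of 6 fibroblast markers tested, 5 were higher at TN and 0 at RT, and their summed level was 307 to 414.5 TPM in TN WT against 695.8 to 706.3 TPM in TN Txnip-/-.

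Of the other marker lists, brown adipocyte markers were lower in 4 of 12 at TN, with a median of −0.40, and in 2 of 12 at RT. Lymphocyte markers were higher at TN in 2 of 5 tested, with a median of 0.61 and sums of 2.9 to 16.7 TPM over the 12 libraries. Of the lymphocyte markers, Cd4 and Cd3d averaged 0.664 and 0.746 TPM in TN WT, under the mean of 1 TPM needed for a test. They were tested only through their TN Txnip-/- levels. Endothelial markers were higher at TN in 1 of 6, with a median of 0.12. At RT all 5 skeletal muscle markers tested were higher in Txnip-/- BAT, with a median of 2.30. Acta1, Ckm, Myh4 and Tnnt3 averaged 0.468, 0.077, 0.051 and 0.047 TPM in RT WT. They were tested only through RT Txnip-/-, so this count was partly fixed by the filter. The part of these lists in the lysosome gene differences was not tested.

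The temperature comparisons asked how the same genes differed between TN and RT within a genotype. In WT BAT, 9 of 37 were higher at TN (Ctsc, Ctsh, Ctss, Ctsa, Ctsk, Lgmn, Ppt1, Man2b1 and Cd63) and 3 were lower (Ctsz, Scarb2 and Atp6v0d1), against 31.4% higher and 6.39% lower of 12486 genes. In Txnip-/- BAT, 17 were higher and 1, Scarb2, was lower, against 30.9% higher and 8.27% lower. The median log2 fold change of the members was 0.10 in WT and 0.24 in Txnip-/-, while that of all genes was 0.18 and 0.15, so that in WT the median of the list lay below that of all genes. With that shift taken out by centring each library on its median, 6 were higher and 8 lower in WT, against 15.4% and 14.7% of all genes, and 11 were higher and 4 lower in Txnip-/-, against 18.4% and 19.5%.

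Ctss, Ctsh, Ctsc and Ctsk were among the genes higher at TN in each genotype. In WT, Ctss was 1.96 ± 0.29 higher at TN (adjusted p = 0.000403, limma), Ctsh 0.77 (adjusted p = 0.000977), Ctsc 0.72 (adjusted p = 0.000375), Cd63 0.65 ± 0.09 (adjusted p = 0.000225) and Ctsk 0.63 ± 0.10 (adjusted p = 0.000656) on the log2(TPM + 1) scale. In Txnip-/- BAT the values were 2.37 for Ctss, 1.41 for Ctsh, 1.202 for Ctsc, 0.91 for Cd63 and 1.41 for Ctsk. TN and RT libraries of a genotype did not overlap for any of these genes. Ctsb was called in Txnip-/- (0.51 ± 0.06) and not in WT (0.09, adjusted p = 0.288), with WT levels of 396 to 431 TPM at RT and 432 to 454 TPM at TN.

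Ppt1 was among the more even changes, with all TN libraries above all RT libraries in WT (0.52 ± 0.06, adjusted p = 0.000104, limma), and 0.71 in Txnip-/-. Its exons share 129 bases with Cap1 on the opposite strand, which had temperature differences of 0.31 in WT (not called) and 0.45 in Txnip-/- (called), so reads of these bases cannot be assigned. Lgmn was 0.34 higher at TN in WT and 0.73 in Txnip-/-, Man2b1 0.45 and 0.90, and Ctsa 0.39 and 0.76. With centring the WT calls of Lgmn (0.16), Man2b1 (0.26) and Ctsa (0.20) were lost. Asah1, Psap, Gla, Glb1, Gusb, Hexa and Atp6v0a1 were called in Txnip-/- alone, where their differences ranged from 0.33 for Gla to 0.63 for Gusb. With centring the Txnip-/- calls of Asah1, Psap, Gla, Glb1 and Atp6v0a1 were lost, at 0.15 to 0.26, as was that of Ctsb (0.32, just under the fold threshold). Their calls in 1 genotype and not in the other do not show a difference between genotypes, which the interaction below tested.

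Scarb2 was lower at TN in both genotypes, from 55.4, 55.6 and 53.7 TPM in RT WT to 43.6, 37.8 and 34.2 TPM in TN WT (−0.51 ± 0.09, adjusted p = 0.000941, limma), and by −0.35 ± 0.09 in Txnip-/- (adjusted p = 0.00657). Atp6v0d1, a subunit that joins the 2 parts of the pump (chr8:105524461-105566064, minus strand), went from 47.3, 50.7 and 54.9 TPM in RT WT to 36.96, 40.1 and 38.8 TPM in TN WT (−0.39 ± 0.07, adjusted p = 0.00115). In Txnip-/- it measured 47.8, 51.2 and 51.4 TPM at RT and 39.5, 45.1 and 40.4 TPM at TN, and its value of −0.26 passed the p threshold (adjusted p = 0.00899) but not the fold threshold. Ctsz was lower in all TN WT than in all RT WT libraries (−0.37 ± 0.11, adjusted p = 0.0191), and in Txnip-/- its −0.25 did not pass (adjusted p = 0.0830). The WT call of Ctsz was lost without RT WT replicate 2 or 3 or TN WT replicate 1, and the Txnip-/- call of Scarb2 without RT Txnip-/- replicate 2 or TN Txnip-/- replicate 1.

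**Figure D4:**
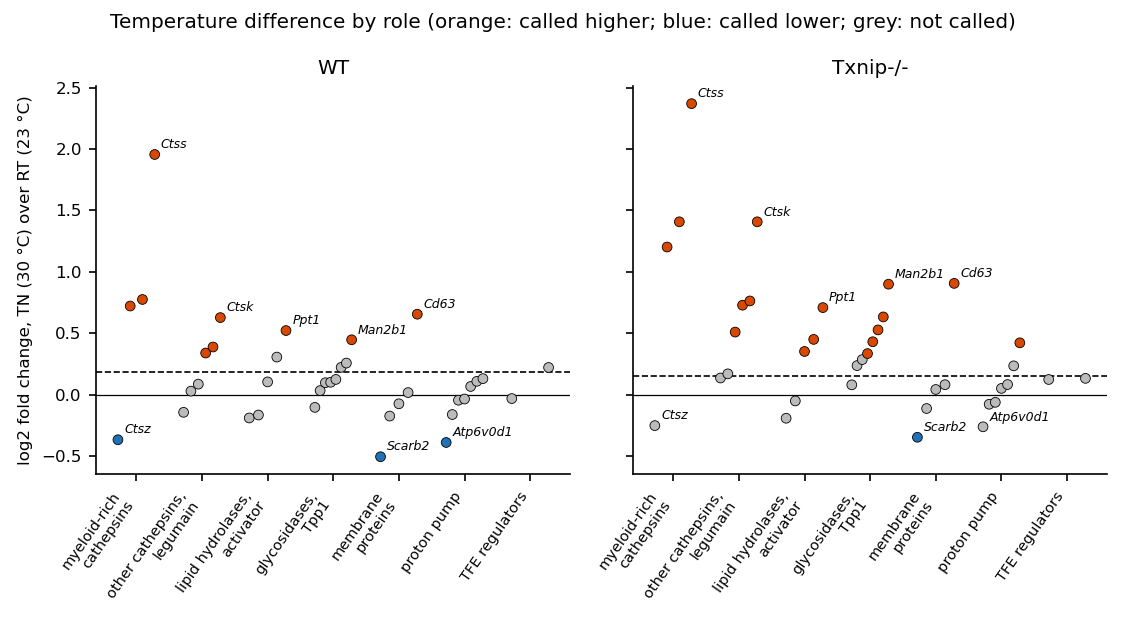
Log2 fold change on the log2(TPM + 1) scale, TN over RT, of each lysosome gene by role in WT and in Txnip-/- BAT, with called higher genes in orange, called lower genes in blue and the median of all genes tested as a dashed line. In WT 9 genes are called higher and 3 lower, and in Txnip-/- 17 higher and 1 lower. The dashed line stands at 0.18 in WT and 0.15 in Txnip-/-.

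Beside the shares of all genes that were higher at TN, 31.4% in WT and 30.9% in Txnip-/-, or 15.4% and 18.4% after centring, myeloid markers had 15 of 18 higher at TN in WT and 16 of 18 in Txnip-/-, and brown adipocyte markers were lower in 6 of 12 and 7 of 12. Fibroblast markers were higher in 5 of 6 in each genotype (medians 0.70 and 1.35), endothelial markers in 3 of 6 in WT and 6 of 6 in Txnip-/-, and lymphocyte markers in 2 of 3 and 3 of 3. Skeletal muscle markers were lower in 5 of 5 in Txnip-/-, with a median of −1.86, and none of the 5 was called in WT. Of the muscle markers, Ckm, Myh4 and Tnnt3 were tested only through RT Txnip-/- (6.16, 4.15 and 5.77 TPM), so their fall was partly fixed by the filter. In the myeloid list Itgam, Fcgr1 and Cx3cr1, and in the lymphocyte list Cd79b, averaged under 1 TPM in both RT groups. They were tested through their TN levels. These marker counts are without centring. The part of these lists in the temperature differences was not tested.

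Whether the genotype difference itself changed with temperature was tested as the interaction of the 4 groups, which uses the libraries of the comparisons above. It called 0 of 37 members by limma at an adjusted p under 0.05, against 0.00801% of 12486 genes, which is the single gene Txnip. At an unadjusted p under 0.05 there were 14 members, all with a larger Txnip-/- minus WT difference at TN, against 6.13% of all genes tested in that direction. The interaction value lay above 0 in 34 of 37 members, with a median of 0.16 against −0.02 over all genes. Among the marker lists, the interaction median was 0.36 for myeloid (17 of 18 above 0), 0.59 for fibroblast (5 of 6) and 0.32 for endothelial markers (6 of 6). It was 0.55 for lymphocyte (3 of 3 above 0), −0.02 for brown adipocyte (5 of 12) and −2.29 for skeletal muscle markers (0 of 5). The muscle markers Ckm, Myh4 and Tnnt3 were tested only through their RT Txnip-/- levels. The part of the marker lists in the result was not tested. Ctsk came nearest to the threshold (0.78 ± 0.14, adjusted p = 0.0938), followed by Ctsb (0.42 ± 0.09, adjusted p = 0.131) and Ctsa (0.37 ± 0.09, adjusted p = 0.155). For Ctss, which has the largest genotype difference, the interaction was 0.41 ± 0.41 (adjusted p = 0.704), and for Cd63 it was 0.25 ± 0.12 (adjusted p = 0.423).

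Further genes of the lysosome outside the 37 were read from fixed lists. Of 43 other lysosome genes, 7 were higher in Txnip-/- at TN and 1 was lower, and the list median was 0.10 on the log2 scale, beside the 6.49% higher and 2.17% lower of all genes at TN. The largest were Gpnmb, a glycoprotein of macrophages and melanocytes (2.22, with means of 0.415 TPM in WT and 1.51 TPM in Txnip-/- at RT and of 1.47 and 10.6 TPM at TN, adjusted p = 0.000215, limma), Laptm5 (1.34), a lysosomal membrane protein of blood cells, and Cd68 (1.32), a lysosomal glycoprotein of macrophages. Grn, Gm2a, Galns and Plbd2 followed at 0.47, 0.46, 0.44 and 0.40. The lower gene was Galc, which encodes galactosylceramidase (−0.41, adjusted p = 0.0482). At RT, 0 were higher and 1, the tartrate-resistant acid phosphatase gene Acp5, was lower (−0.44, adjusted p = 0.0203) of the 42 tested, which left out Gpnmb for its low level, beside 0.760% and 0.726% of all genes.

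Of 12 further pump subunits tested at TN, 2 were higher, and both belong to the pump of osteoclasts and macrophages. Atp6v0d2 had means of 0.073 TPM in WT and 0.482 TPM in Txnip-/- at RT, and of 0.673 and 3.47 TPM at TN. Its difference at TN was 1.46 (adjusted p = 0.00865, limma). Its TN WT mean was under the 1 TPM needed for a test. Atp6v0d2 was thus tested only through TN Txnip-/-, and its call was partly fixed by the filter. Tcirg1, which encodes the a3 subunit, had means of 9.80 and 11.7 TPM at RT and of 14.2 and 21.3 TPM at TN, and differed by 0.55 (adjusted p = 0.0188). The median of the 12 was 0.02. None of the 14 genes tested for TFE and nutrient control was called at TN or RT, with a median of −0.04 at TN. Of these, Rragc (−0.31, adjusted p = 0.0473, limma) and Fnip1 (−0.28, adjusted p = 0.0441) passed the p threshold at TN but not the fold threshold. The 2 cathepsin inhibitors tested were not called either, Cst3 (0.32, adjusted p = 0.163) and Cstb (0.14).

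**Figure D5:**
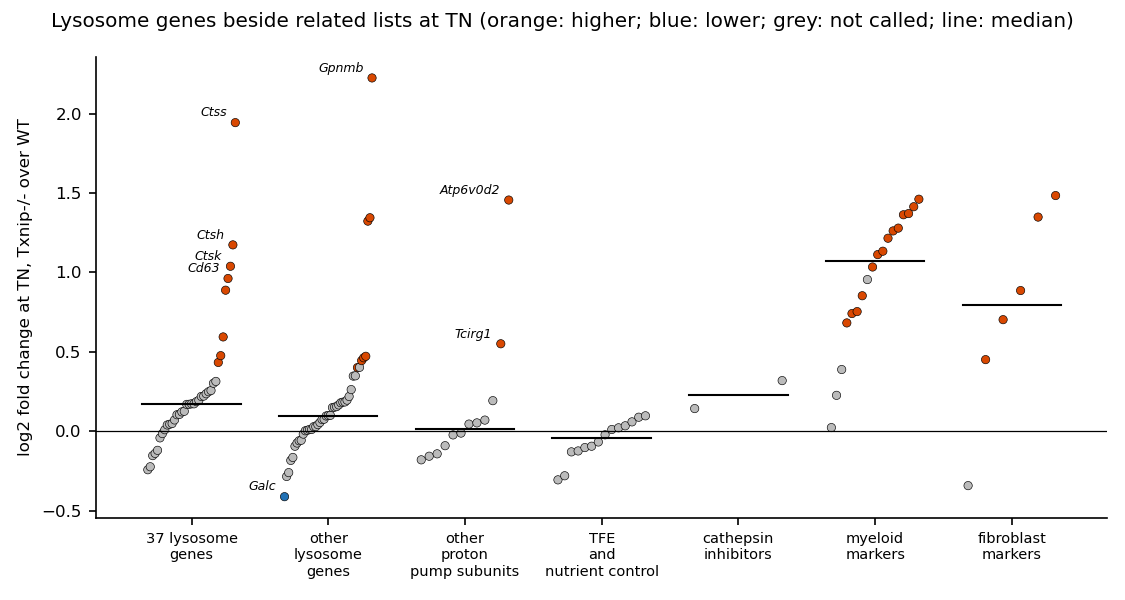
Log2 fold change at TN on the log2(TPM + 1) scale, Txnip-/- over WT, of the 37 lysosome genes beside the related lists, with called higher genes in orange, called lower genes in blue and the median of each list as a line. The highest values are Gpnmb at 2.22, Ctss at 1.94 and Atp6v0d2 at 1.46, while the list medians are 0.17 for the 37 genes, 0.10 for other lysosome genes and 0.02 for other pump subunits.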

How the data were processed

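Per the labels and the study's methods, the libraries were made from poly(A) RNA of BAT, aligned to mm10 with STAR 2.7.5a, and quantified with HOMER 4.11.1, with DESeq2 named in the submitters' notes. The TPM deposited by the authors give 1 transcript per gene, and the listed genes make up 55.38 to 57.55% of the TPM scale in each library. Tables of log2 values, deposited by the authors per temperature, served as an alternative only. Their levels followed log2 TPM times transcript length with a slope of 0.99 to 1.01 over the 12 libraries, but their genotype differences were smaller than those of log2(TPM + 1), with a median ratio of 0.70 at TN and 0.66 at RT among genes of at least 10 TPM that differed by over 1 on that scale; their columns of fold changes and p-values were not used. The strand setting was not given in the sources used here, and 1 TPM has no known number of reads behind it, so no counting interval is given.

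Genes whose TPM averaged 1 or more over the libraries of a fit were tested with limma 3.58.1 in R 4.3.3 on log2(TPM + 1), with a trended empirical Bayes prior and Benjamini-Hochberg adjustment over all genes tested. Genotypes were compared in the 6 libraries of each temperature. Temperatures and the interaction were fitted on all 12 libraries with 4 group means, which the comparisons share. The scripts were tested on simulated data. Members, lists and role groups were chosen with earlier results of these data known. Members called in any comparison, and the member of each role group with the smallest difference at TN, are given with their TPM in every library, and Ctsd, Lipa, Smpd1, Gaa and Lamp1 were added after their values were seen. From the lists, genes called at TN are named by the 3 largest and 3 smallest values, with Grn, Tcirg1, Acp5, Cst3, Cstb, Rragc and Fnip1 beyond that. Some marker genes are named for their levels. Promoter sequences are from RefSeq on GRCm38.p6. Ctsb, Ctsh, Atp6v1h, Asah1 and Atp6v1b2 had no matched window. Alternatives were the deposited log2 values, another pseudocount, no filter on low values, upper-quartile scaling, median centring, no fold threshold, an adjusted p of 0.1, the replicate number as a block, and leaving out each library.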

Additional observations from a re-analysis of the deposited data

Results flagged for a closer look

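Gaa, which encodes the acid α-glucosidase that breaks down lysosomal glycogen, had genotype differences of opposite sign at the 2 temperatures. At TN it measured 33.8, 31.7 and 30.7 TPM in WT and 35.5, 38.2 and 35.1 TPM in Txnip-/-, with all Txnip-/- libraries higher. At RT it measured 37.6, 34.7 and 31.5 TPM in WT and 31.3, 30.5 and 30.1 TPM in Txnip-/-, with all Txnip-/- libraries lower. Neither difference passed by limma, at 0.17 ± 0.07 for TN (adjusted p = 0.159) and −0.17 ± 0.08 for RT (adjusted p = 0.340). The TN difference minus the RT difference was 0.34 ± 0.10 on the log2(TPM + 1) scale. Its adjusted p was 0.217 over all genes by limma, so the difference between temperatures did not pass the correction. Other members changed sign as well, among them Gusb (0.25 at TN and −0.26 at RT) and Hexa (0.17 and −0.25).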

How the results depend on the processing

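No called lysosome gene changed direction under any alternative. At RT the 2 calls were 1 without the low-value filter and 1 with the replicate block, where Cd63 had adjusted p of 0.0537 and 0.0570, and 0 to 2 with 1 library left out. They were 0 without RT WT replicate 1 or 2 or RT Txnip-/- replicate 1 or 3. At TN the 8 calls were 6 to 9 with 1 library left out. Man2b1 was lost without the filter (adjusted p = 0.0609) and without TN WT replicate 1 or 3 or TN Txnip-/- replicate 1 or 2, and Ctsa with the deposited log2 values (0.31, under the fold threshold, in a table whose differences are compressed, with a median ratio of 0.70 to those of log2(TPM + 1)) and without TN Txnip-/- replicate 1. Without replicate 2 of each TN group, which held muscle transcripts, an alternative chosen after seeing the data, 2 calls were left (Ctsh and Cd63), with Ctss at 1.92, Ctsk at 1.02 and adjusted p of 0.0527 to 0.0858 for the 6 lost. That fit had fewer libraries, and calls over all genes went from 1116 to 130.

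For temperature, calls numbered 10 to 13 in WT and 15 to 18 in Txnip-/- with 1 library left out. Lower calls in WT were 8 with median centring. In Txnip-/- lower calls were 3 with upper-quartile scaling, 4 with centring, 2 with no fold threshold, and 0 to 2 with 1 library left out (0 without RT Txnip-/- replicate 2 or TN Txnip-/- replicate 1), and higher calls were 11 with centring. The share of calls over all genes that were higher was 83.1% in WT, 70.4% with upper-quartile scaling and 51.1% with centring, and in Txnip-/- 78.9%, 68.8% and 48.5%. Of the 37 members, the interaction called 1, Ctsk, at an adjusted p under 0.1 (25 of all 12486 genes), and 0 with a block within temperature added after seeing the data (4 of all genes). Over all genes, RT calls were 178, 44 without the filter, 100 with the block and 2 to 159 with 1 library left out, and TN calls were 621 without the filter and 456 to 1005 with 1 left out. Deviations of libraries with the same replicate number had genotype-to-genotype correlations of 0.297, −0.022 and 0.210 at RT, and of 0.042, 0.023 and −0.036 at TN. Whether libraries with the same number shared a batch was not tested.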
